A study of Mus musculus with 6 samples.

Results

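The S100 family is a group of small calcium-binding proteins found in vertebrates. The 10 members described here (S100g, S100a1, S100a4, S100a6, S100a8, S100a9, S100a10, S100a11, S100a13 and S100a16) were chosen by gene symbol from 55363 features, with earlier results of these data known. All 10 passed the expression filter that left 15438 features for testing. Whole oviducts were taken on gestational day 3, counting the day of the vaginal plug as day 1, from females of 6 to 8 weeks mated with fertile males. The Mettl3 d/d group had 3 RNA-seq libraries and the Mettl3 f/f group had 3. Mettl3 encodes the catalytic subunit of the enzyme that writes N6-methyladenosine on RNA; d/d commonly denotes the deleted form of a gene and f/f the loxP-flanked one. Neither the Cre driver, and so the cells that lost Mettl3, nor whether each library came from 1 animal or from a pool is given in the sources used here.

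Most S100 proteins work as dimers. Each subunit carries a pair of helix-loop-helix calcium sites called EF-hands, and calcium binding opens a surface that grips a target protein. S100g, also called calbindin-D9k, is an exception that acts as a monomer and buffers or ferries calcium in absorptive and reproductive epithelia, and in the rodent uterus its transcript is known to follow ovarian steroids. S100a8 and S100a9 pair as calprotectin, which neutrophils hold in bulk and release at sites of inflammation. S100a10 does not bind calcium and is held by annexin A2 at the membrane.

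The deposited values were read as gene-level FPKM, an inference. FPKM are fragment numbers divided by transcript length and by library size, a scale on which genes can be compared per length. The lowest FPKM steps implied 16600000 to 17800000 fragments per library, and 21085 to 22211 features per library were above 0. Mettl3 itself had 19.8, 20.3 and 24.5 FPKM in d/d libraries, against 11.8, 12.1 and 13.2 FPKM in f/f libraries. Its level was thus higher under the d/d label (log2 change 0.75, limma adjusted p = 0.0145; 0.0722 without f/f replicate 2). Which exons were deleted is not stated, so a gene-level value cannot check the deletion, and every direction below is between groups as labelled. The oviduct label was checked with Ovgp1, the oviduct's major secreted glycoprotein, which averaged 4013 ± 1235 FPKM in d/d and 4993 ± 714 FPKM in f/f libraries (SD, n = 3 each). The libraries within a group differed in makeup: 9 markers of multiciliated cells summed to 44.2 to 192 FPKM in d/d and 109 to 355 FPKM in f/f libraries, with d/d replicate 1 lowest and f/f replicate 1 highest. Smooth muscle markers (7 genes) summed to 2696 to 4401 FPKM in d/d and 2167 to 5244 FPKM in f/f libraries, and f/f replicate 1 was the lowest of all 6. Transcripts of mitochondrial DNA took 6.50%, 6.76% and 9.70% of all FPKM in d/d, against 4.47%, 5.70% and 3.61% in f/f libraries, higher in every d/d library; the part of this in the results was not tested. In such bulk tissue, fewer cells of a type and less RNA per cell cannot be told apart.

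S100g and S100a6 were lower in d/d oviducts and no member was higher. By limma with Benjamini-Hochberg adjustment over all 15438 features at 0.05, 2 of the 10 members were lower, where 4.97% of all features were, and 0 were higher, where 6.04% were. At an unadjusted p under 0.05 the counts were 3 lower, where 14.2% of all features were, and 0 higher, where 15.4% were. The groups did not overlap for 2 of the 10 members, S100g and S100a6, while 35.6% of all features tested showed no overlap. The median log2 change of the members was 0.04, beside -0.01 over all features tested.

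**Figure D1:**
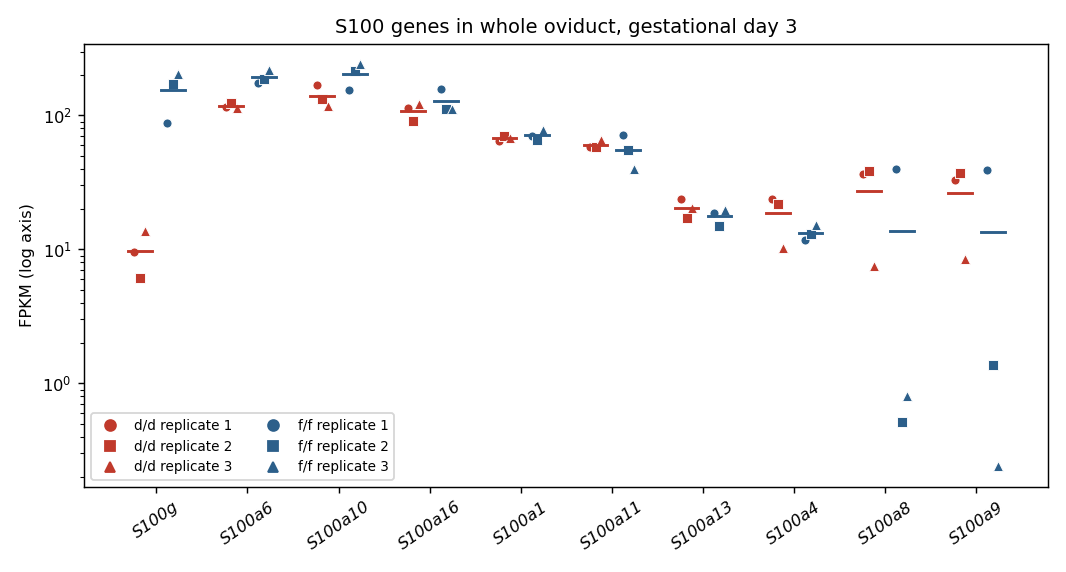
FPKM on a log axis of the 10 S100 genes in each d/d (red) and f/f (blue) library, with a bar at each group's arithmetic mean. S100g lay at 6.08 to 13.8 FPKM in d/d and 87.2 to 205 FPKM in f/f libraries, and S100a8 and S100a9 were about as high in f/f replicate 1 as in d/d replicates 1 and 2.

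**Figure D2:**
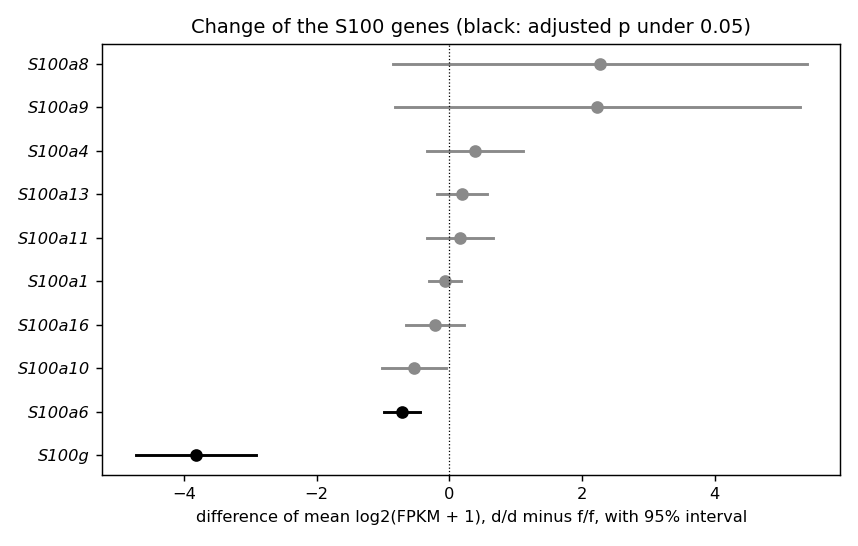
Difference between the d/d and f/f means of log2(FPKM + 1), positive where d/d is higher, with its 95% interval from limma for each S100 gene; black marks an adjusted p under 0.05. S100g (-3.83) and S100a6 (-0.71) passed, and S100a8 and S100a9 had the widest intervals.

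S100g showed a fall of more than an order of magnitude. It had 9.49, 6.08 and 13.8 FPKM in d/d replicates 1 to 3, against 87.2, 171 and 205 FPKM in f/f replicates 1 to 3. Every d/d library was far below the lowest f/f library, and f/f replicate 1 was the lowest of its group. The means were 9.80 ± 3.88 FPKM in d/d and 155 ± 60.8 FPKM in f/f (SD, n = 3 each), a 15.8-fold lower level in d/d. The log2 change was -3.83 (SE 0.38, 95% interval -4.73 to -2.92, limma adjusted p = 0.00481). The exact permutation test on the 6 values gave p = 0.1 (two-sided), the smallest that 3 against 3 allows. With any single library left out the level stayed between 13.2-fold and 19.9-fold lower.

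S100g took a different place within the family in each group. By mean FPKM it ranked 10 of 10 in d/d and 3 of 10 in f/f, behind S100a10 and S100a6. It made up 1.47%, 1.02% and 2.53% of the summed FPKM of the 10 members in d/d libraries, against 10.5%, 20.5% and 22.1% in f/f libraries. The summed FPKM was 646, 597 and 546 in d/d, against 828, 836 and 929 in f/f libraries. Without S100g the sum was 637, 591 and 532 FPKM in d/d, against 740, 664 and 724 FPKM in f/f libraries. The remaining gap without S100g lay mainly in S100a6 and S100a10.

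S100g lies apart from the other members, on chromosome X (GRCm38, chrX:162961992-162964599, minus strand), inside an intron of Ctps2, a CTP synthase gene on the opposite strand. None of its 480 exonic bases (0) overlap an exon of Ctps2. No source used here gives the strand setting, so unspliced Ctps2 reads over S100g could not be told apart from its own. Ctps2 had 30.0, 31.0 and 164 FPKM in d/d and 36.6, 39.3 and 41.8 FPKM in f/f libraries (limma adjusted p = 0.670). The host gene's values overlapped between the groups only through d/d replicate 3. In d/d replicates 1 and 2 they were below every f/f library. The 250 bases before the RefSeq start sites of the 2 genes that fell, S100g and S100a6, are shown 5' to 3' because both are described in rodent tissue or cells as hormone-regulated or growth-regulated genes. They come from RefSeq promoter windows on GRCm38.p6. Capitals mark GGTCA or TGACC, an arm of the estrogen response element, in S100g (chrX:162964600-162964849, minus strand) and AGAACA, an arm of the progesterone and glucocorticoid response element, in S100a6 (chr3:90612644-90612893, plus strand).
S100g: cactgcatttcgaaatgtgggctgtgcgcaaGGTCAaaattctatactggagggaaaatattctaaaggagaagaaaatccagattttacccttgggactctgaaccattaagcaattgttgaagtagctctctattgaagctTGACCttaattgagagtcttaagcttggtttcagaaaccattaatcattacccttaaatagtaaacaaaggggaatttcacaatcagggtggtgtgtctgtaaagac
S100a6: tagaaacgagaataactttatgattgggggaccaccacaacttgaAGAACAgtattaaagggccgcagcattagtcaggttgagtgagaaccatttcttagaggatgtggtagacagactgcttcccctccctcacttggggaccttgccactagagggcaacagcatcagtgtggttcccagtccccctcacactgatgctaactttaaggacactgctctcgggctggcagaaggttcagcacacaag

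The windows were searched on both strands, and 9 of the 10 members had one. The full estrogen response element (GGTCA and TGACC spaced by any 3 bases) was in 0 members and in 0.0639% of the 32851 windows. The full progesterone and glucocorticoid response element (AGAACA and TGTTCT spaced by any 3 bases) was in 0 members and in 0.00913% of windows. A lone GGTCA or TGACC was in 4 members (S100g, S100a16, S100a4 and S100a11) and in 35.2% of all windows. In S100g these letters stood 219 and 107 bases before the start site. A lone AGAACA or TGTTCT was in S100a6 alone among the members, 205 bases before its start site, and in 16.1% of windows. The AP-1 site TGANTCA was in 2 members, S100a11 and S100a16, and in 6.75% of windows. The search for single arms was added after the full elements had been looked for. Such matches are common letters in promoters and describe the sequence only.

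The receptors behind these elements had overlapping levels in both groups. None (0) of the 4 steroid receptor genes tested of 5 passed in either direction, and 0 had an unadjusted limma p under 0.05, a threshold that 15.4% of all features passed as higher and 14.2% as lower. Esr1, the main estrogen receptor of the tract, averaged 154 ± 15.0 FPKM in d/d and 139 ± 1.89 FPKM in f/f libraries (SD, n = 3 each; log2 change 0.14, 95% interval -0.11 to 0.40, adjusted p = 0.408). Pgr, the progesterone receptor, averaged 40.2 ± 5.57 FPKM in d/d and 41.0 ± 4.94 FPKM in f/f libraries (log2 change -0.03, 95% interval -0.37 to 0.31, adjusted p = 0.910).

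Of 10 genes of epithelial calcium transport and vitamin D action, 7 were tested and 0 passed in either direction. At an unadjusted limma p under 0.05, 3 were higher and 2 lower, beside 15.4% and 14.2% of all features, and the list's median log2 change was 0.07. Calb1, the larger cytosolic calcium buffer calbindin-D28k and the most abundant of the list, had 195, 88.1 and 192 FPKM in d/d and 117, 288 and 271 FPKM in f/f libraries. Its groups overlapped (log2 change -0.49, 95% interval -1.53 to 0.56, adjusted p = 0.498). Atp2b1, a plasma membrane pump that exports calcium, averaged 96.8 ± 13.9 FPKM in d/d and 61.9 ± 10.2 FPKM in f/f libraries and narrowly missed the threshold (log2 change 0.64, adjusted p = 0.0509). Its groups did not overlap, and it passed under 3 other scalings of the libraries (quantile, TMM, protein-coding; adjusted p 0.0323 to 0.0463). It missed the threshold in every fit that left out a single library (limma adjusted p 0.0823 to 0.127). Trpv6, the apical calcium channel of absorptive epithelia, averaged 1.95 ± 0.930 FPKM in d/d and 0.538 ± 0.113 FPKM in f/f libraries (adjusted p = 0.0868). Vdr, the vitamin D receptor, averaged 1.23 ± 0.0605 FPKM in d/d and 3.54 ± 1.48 FPKM in f/f libraries (adjusted p = 0.0725). Trpv5, the close relative of Trpv6 in the kidney, was listed at 0 in all 6 libraries.

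Epithelial markers moved in both directions beside S100g. The 7 markers summed to 773 to 880 FPKM in d/d and 983 to 1246 FPKM in f/f libraries. Of these, 2 were called higher and 1 lower, beside 6.04% and 4.97% of all features. Epcam and Cdh1, which hold epithelial cells to each other, were higher in d/d, while the keratin gene Krt18 was lower (limma adjusted p = 0.0277 for Epcam, 0.0394 for Cdh1 and 0.0345 for Krt18). All 3 calls were lost when any single library other than f/f replicate 1 was left out (adjusted p 0.0603 to 0.107 for Epcam, 0.0781 to 0.13 for Cdh1 and 0.0723 to 0.0985 for Krt18). Krt8, Krt19 and Cldn3 were not called, but each was lower in every d/d library than in any f/f library. The epithelial sum was lower in the same way. By contrast, 6 secretory epithelium markers summed to 5523 to 7897 FPKM in d/d and 5204 to 6218 FPKM in f/f libraries, with overlap. Of those 6, 3 were called higher (Ltf, Lcn2 and Muc1) and 0 lower, beside the same shares. Without f/f replicate 2, 0 were called. The part of epithelial makeup in the fall of S100g was not tested. Hoxa10, which marks the uterus and the oviduct's uterine end, had 4.24, 9.47 and 12.4 FPKM in d/d and 3.48, 26.5 and 25.1 FPKM in f/f libraries. In f/f replicate 1 both Hoxa10 and S100g (87.2 FPKM) were the lowest of the f/f group. How much uterine-end tissue bears on S100g was not tested.

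The 5 features whose pattern over the 6 libraries was most like that of S100g were Gstm7, Cwh43, Wfdc15b, Gm47135 and Hif3a. Likeness was the root mean square difference between log2(FPKM + 1) profiles centred on their own mean, over the other 15437 features tested. It was 0.222 for Gstm7, 0.320 for Cwh43, 0.387 for Wfdc15b, 0.409 for Gm47135 and 0.501 for Hif3a, beside a median of 1.98 over all features. All 5 were lower in d/d, as this measure favours. Gstm7, a glutathione S-transferase, had 12.9, 8.66 and 15.1 FPKM in d/d, against 89.0, 197 and 178 FPKM in f/f libraries. Like S100g it was lowest in d/d replicate 2 and, among f/f libraries, in replicate 1, which the measure also favours. Its highest f/f library was replicate 2, whereas that of S100g was replicate 3.

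**Figure D3:**
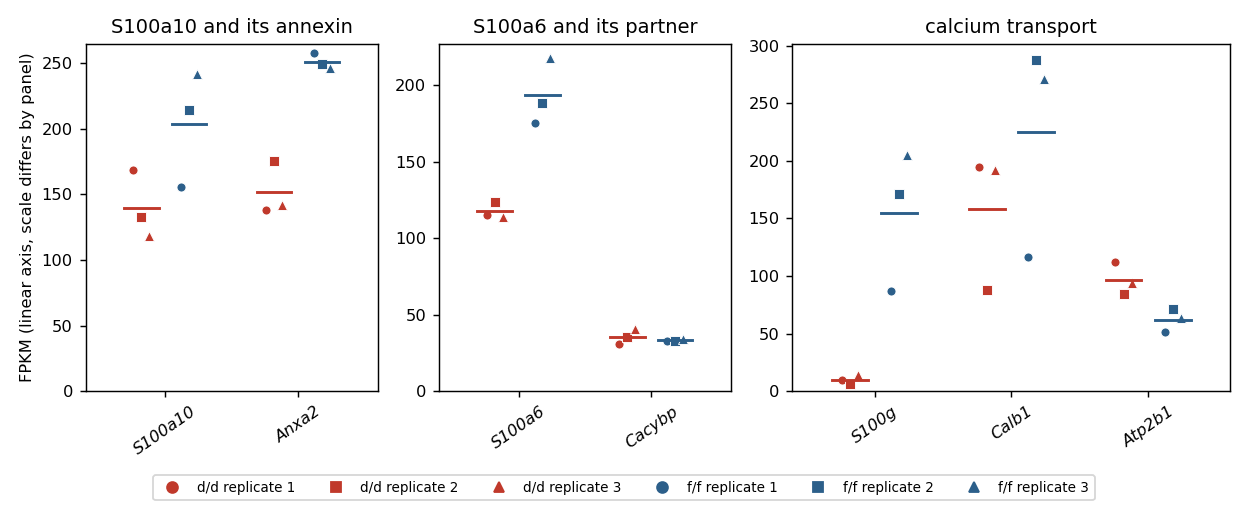
FPKM per library of S100a10 with Anxa2, S100a6 with Cacybp, and S100g with Calb1 and Atp2b1; d/d in red, f/f in blue, bars at the group means, linear axes starting at 0 with a scale for each panel. Anxa2 and S100a6 separated the groups, whereas S100a10, Cacybp and Calb1 overlapped.

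S100a6 fell modestly and evenly. S100a6, or calcyclin, is a calcium sensor of proliferating epithelial and stromal cells. It had 115, 124 and 114 FPKM in d/d, against 175, 188 and 217 FPKM in f/f libraries. The d/d libraries lay close to each other and all below the f/f range. The means were 117 ± 5.42 FPKM in d/d and 194 ± 21.6 FPKM in f/f (SD, n = 3 each), 1.65-fold lower in d/d. The log2 change was -0.71 (SE 0.11, 95% interval -0.98 to -0.44, limma adjusted p = 0.0145). The exact permutation p was 0.1, the smallest possible. The call was lost when d/d replicate 3 (adjusted p = 0.0559) or f/f replicate 2 (adjusted p = 0.0640) was left out, while the log2 change stayed between -0.78 and -0.63. Cacybp, the calcyclin-binding protein, averaged 35.5 ± 4.90 FPKM in d/d and 33.3 ± 0.923 FPKM in f/f libraries (adjusted p = 0.692), with no call.

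Stromal markers moved in both directions beside S100a6. The 8 fibroblast markers summed to 2793 to 4252 FPKM in d/d and 2982 to 3334 FPKM in f/f libraries. Of these, 1 was called higher and 2 lower, beside 6.04% and 4.97% of all features. Pdgfra, a receptor of fibroblasts, averaged 22.8 ± 5.11 FPKM in d/d and 42.5 ± 2.89 FPKM in f/f libraries (SD, n = 3 each; log2 change -0.89, limma adjusted p = 0.0206). Pi16, which marks a fibroblast subset, averaged 3.39 ± 0.120 FPKM in d/d and 8.29 ± 2.24 FPKM in f/f libraries (log2 change -1.06, adjusted p = 0.020). Lum, a matrix proteoglycan, averaged 308.6 ± 75.2 FPKM in d/d and 177 ± 8.28 FPKM in f/f libraries (log2 change 0.77, adjusted p = 0.0493). Each of these calls was lost in at least 4 of the 6 fits that left out a single library, and the part of stromal cells in the S100a6 values was not tested.

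S100a10 did not pass, but its membrane partner did. S100a10, or p11, had 168, 133 and 118 FPKM in d/d, against 155, 214 and 242 FPKM in f/f libraries. The groups overlapped because d/d replicate 1 was above f/f replicate 1. The means were 139.8 ± 25.8 FPKM in d/d and 204 ± 44.0 FPKM in f/f (SD, n = 3 each; log2 change -0.53, 95% interval -1.02 to -0.05, limma adjusted p = 0.141). Anxa2, which encodes annexin A2, had 138, 175 and 142 FPKM in d/d, against 258, 249 and 247 FPKM in f/f libraries. Its groups did not overlap, and it was 1.65-fold lower in d/d (log2 change -0.73, SE 0.12, adjusted p = 0.0162). Leaving out a single library gave Anxa2 an adjusted p of 0.0540 without d/d replicate 1, 0.0603 without d/d replicate 3, 0.0723 leaving out f/f replicate 2 and 0.0594 leaving out f/f replicate 3. The FPKM ratio of S100a10 to Anxa2 was 1.22, 0.758 and 0.830 in d/d and 0.603, 0.860 and 0.980 in f/f libraries, with overlapping groups.

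Of 12 genes for intracellular partners of S100 proteins, 11 were tested. Anxa2 was the 1 called lower and 0 were called higher, where 4.97% and 6.04% of all features were. At an unadjusted limma p under 0.05, 0 were higher and 3 lower, beside 15.4% and 14.2% of all features. The list's median log2 change was -0.22. Anxa1, the annexin that binds S100a11, averaged 141 ± 23.5 FPKM in d/d and 173 ± 36.9 FPKM in f/f libraries (adjusted p = 0.388). Myh9, the non-muscle myosin heavy chain bound by S100a4, averaged 70.1 ± 7.21 FPKM in d/d and 70.8 ± 6.43 FPKM in f/f libraries (log2 change -0.02, 95% interval -0.30 to 0.27, adjusted p = 0.947).

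The calprotectin genes S100a8 and S100a9 were high and low in the same libraries, and in both groups their SD exceeded the difference between the group means. S100a8 had 36.3, 38.7 and 7.53 FPKM in d/d, against 40.0, 0.515 and 0.807 FPKM in f/f replicates 1 to 3. S100a9 had 33.1, 37.1 and 8.42 FPKM in d/d, against 38.9, 1.38 and 0.240 FPKM in f/f replicates 1 to 3. For both genes f/f replicate 1 was the highest of all 6 libraries and the other f/f libraries were the lowest. S100a8 averaged 27.5 ± 17.3 FPKM in d/d and 13.8 ± 22.7 FPKM in f/f (SD, n = 3 each; log2 change 2.27, 95% interval -0.85 to 5.39, limma adjusted p = 0.295). S100a9 averaged 26.2 ± 15.5 FPKM in d/d and 13.5 ± 22.0 FPKM in f/f (log2 change 2.23, 95% interval -0.82 to 5.28, adjusted p = 0.293).

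A single f/f library set this outcome. Without f/f replicate 1, S100a8 was 41.6-fold higher in d/d (log2 change 3.82, limma adjusted p = 0.0277) and S100a9 was 32.3-fold higher (log2 change 3.75, adjusted p = 0.0264). Those folds divide by f/f means of only 0.661 FPKM for S100a8 and 0.810 FPKM for S100a9, so their size is uncertain. In that fit the count of members called higher was 2 of 10, where 6% of all features were, and 2 were lower, where 5.53% were. With replicate 1 of both groups left out, neither passed (adjusted p = 0.0618 for each). The 2 genes made up 10.7%, 12.7% and 2.92% of the family's summed FPKM in d/d, against 9.53%, 0.227% and 0.113% in f/f libraries. Their FPKM ratio, S100a8 over S100a9, was 1.10, 1.04 and 0.895 in d/d and 1.03, 0.373 and 3.36 in f/f libraries, the last pair at values near or under 1 FPKM.

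**Figure D4:**
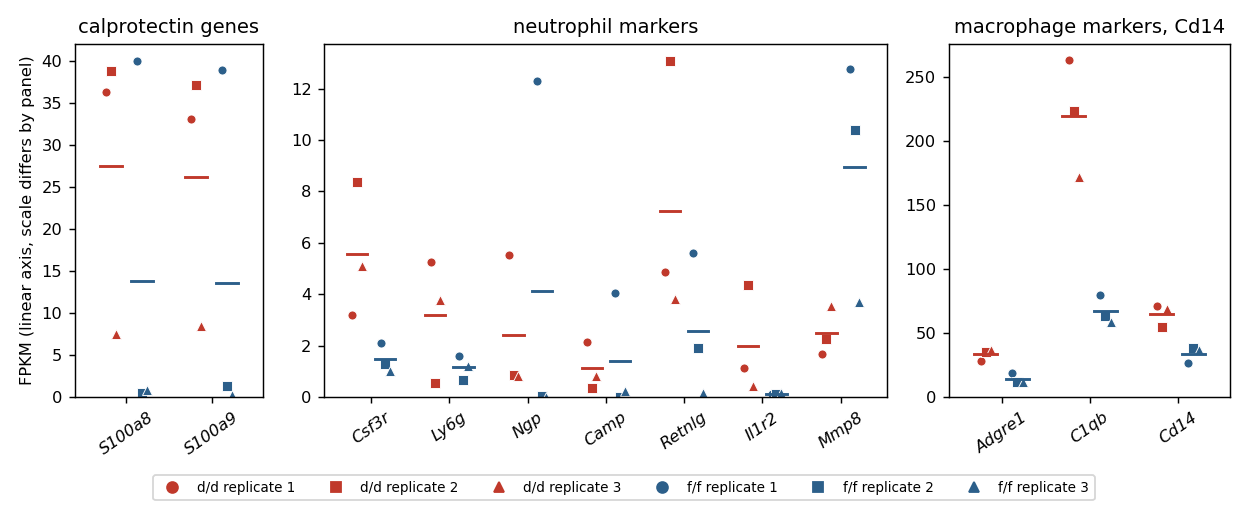
FPKM per library of S100a8 and S100a9, of the 7 neutrophil markers tested, and of macrophage genes with Cd14; d/d in red, f/f in blue, bars at the group means, linear axes starting at 0 with a scale for each panel. Ngp and Camp, like S100a8 and S100a9, were highest in f/f replicate 1, whereas Adgre1, C1qb and Cd14 were higher in every d/d library than in any f/f library.

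Markers of neutrophils moved partly with the calprotectin genes. The summed FPKM of 12 neutrophil markers was 24.6, 31.6 and 19.3 in d/d, against 40.6, 14.8 and 6.62 in f/f libraries, with f/f replicate 1 highest. Mmp8, a neutrophil collagenase, gave a large part of that, at 1.68, 2.27 and 3.53 FPKM in d/d and 12.8, 10.4 and 3.69 FPKM in f/f libraries. Without Mmp8, a choice made after seeing the data, the sum was 22.9, 29.3 and 15.8 FPKM in d/d, against 27.9, 4.45 and 2.92 FPKM in f/f libraries, with d/d replicate 2 highest. Of the 7 tested, 1 was called higher in d/d and 0 lower, beside 6.04% and 4.97% of all features. That marker was Csf3r, the receptor for the neutrophil growth factor, with 3.19, 8.37 and 5.11 FPKM in d/d, against 2.09, 1.30 and 1.01 FPKM in f/f libraries (limma adjusted p = 0.0459), a call lost without any single f/f library, d/d replicate 2 or d/d replicate 3. The granule gene Ngp had 5.52, 0.875 and 0.803 FPKM in d/d, against 12.3, 0.0587 and 0 FPKM in f/f libraries. Camp, a granule antimicrobial peptide gene, had 2.14, 0.363 and 0.841 FPKM in d/d, against 4.03, 0 and 0.238 FPKM in f/f libraries. Retnlg, a gene of mature neutrophils, was highest in d/d replicate 2, with 4.87, 13.1 and 3.80 FPKM in d/d, against 5.60, 1.90 and 0.18 FPKM in f/f libraries. Il1r2, a decoy receptor for interleukin-1, had 1.13, 4.35 and 0.450 FPKM in d/d, against 0.115, 0.114 and 0.153 FPKM in f/f libraries, so f/f replicate 1 was not raised for it. Ly6g had 5.25, 0.530 and 3.79 FPKM in d/d, against 1.59, 0.666 and 1.22 FPKM in f/f libraries (limma adjusted p = 0.384). It was lowest in d/d replicate 2, where S100a8 and S100a9 were the highest of the d/d group. Mpo and Elane, enzymes made in immature neutrophils, were listed at 0 in all 6 libraries. The part of neutrophil number in the S100a8 and S100a9 values was not tested.

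Macrophage markers, by contrast, separated the genotypes. The 10 markers summed to 1063 to 1415 FPKM in d/d and 376 to 490 FPKM in f/f libraries. Beside 6.04% of all features, 9 of the 10 were called higher in d/d (Adgre1, Csf1r, Cd68, C1qa, C1qb, C1qc, Lyz2, Fcer1g and Mrc1). Cd163 was not called and was lower in each d/d library than in any f/f library. The count fell to 3 of 10 when replicate 2 of either group was left out, and to 4 of 10 when f/f replicate 3 was. The part of macrophage number in the values of S100 members that macrophages also make, such as S100a4 and S100a6, was not tested.

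All 7 genes for receptors of extracellular S100 proteins, their co-receptors and adaptor were tested, with a median log2 change of 0.19. Of these, 1 was called higher and 0 lower, beside 6.04% and 4.97% of all features. At an unadjusted limma p under 0.05, 1 was higher and 1 lower, beside 15.4% and 14.2% of all features. The gene called was Cd14, the monocyte and macrophage co-receptor that serves Tlr4. It had 71.4, 54.5 and 68.9 FPKM in d/d, against 26.6, 38.1 and 36.9 FPKM in f/f libraries, 1.92-fold higher in d/d without overlap (log2 change 0.93, limma adjusted p = 0.0229). The call was lost without d/d replicate 1 (adjusted p = 0.0708), d/d replicate 3 (0.0812), f/f replicate 2 (0.0653) or f/f replicate 3 (0.0616). Tlr4 averaged 18.5 ± 2.88 FPKM in d/d and 14.4 ± 3.19 FPKM in f/f libraries (adjusted p = 0.245). Myd88, the adaptor inside the cell for Tlr4, had 36.1, 27.1 and 29.3 FPKM in d/d, against 37.1, 138 and 138 FPKM in f/f libraries. Its groups did not overlap, but f/f replicate 1 lay just above the d/d values (log2 change -1.52, adjusted p = 0.0968), and it was called lower without that library (log2 change -2.14, adjusted p = 0.00287). Ager, which encodes the receptor RAGE, averaged 2.34 ± 1.73 FPKM in d/d and 2.42 ± 0.240 FPKM in f/f libraries (adjusted p = 0.809). Bsg, which encodes the S100a9 receptor basigin and was the most abundant of the list, averaged 407 ± 19.4 FPKM in d/d and 381 ± 17.0 FPKM in f/f libraries (adjusted p = 0.598).

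The other 5 members lie in the S100 cluster on chromosome 3 and none passed. S100a1, a regulator of calcium handling in muscle, had 64.7, 70.4 and 67.3 FPKM in d/d and 69.8, 65.6 and 78.0 FPKM in f/f libraries. Its groups overlapped, and its 95% interval was among the narrowest (log2 change -0.07, interval -0.31 to 0.17, limma adjusted p = 0.676). S100a16, a widely expressed member, had 114, 90.8 and 121 FPKM in d/d and 159, 111.6 and 111.5 FPKM in f/f libraries, with overlap and only f/f replicate 1 standing above the rest (log2 change -0.22, interval -0.65 to 0.21, adjusted p = 0.465).

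S100a11, the annexin A1 ligand, had 58.0, 58.0 and 65.4 FPKM in d/d and 72.0, 55.2 and 39.5 FPKM in f/f libraries. The f/f values spread on both sides of the d/d values, and the sign of the log2 change, 0.16 (interval -0.34 to 0.66, limma adjusted p = 0.654), turned to -0.06 without f/f replicate 3. S100a13, which takes part in the export of the growth factor Fgf1, had 23.9, 17.2 and 20.3 FPKM in d/d and 18.7, 14.9 and 19.7 FPKM in f/f libraries, with overlap (log2 change 0.19, interval -0.19 to 0.57, adjusted p = 0.468). S100a4, known from motile fibroblasts and myeloid cells, had 23.8, 21.9 and 10.2 FPKM in d/d and 11.7, 12.9 and 15.3 FPKM in f/f libraries. Here d/d replicates 1 and 2 were above all f/f libraries and d/d replicate 3 was below them (log2 change 0.38, interval -0.34 to 1.11, adjusted p = 0.441). Without d/d replicate 3 the S100a4 log2 change was 0.75 with adjusted p = 0.0582.

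Not all neighbours in the cluster shared a call, and a missed call does not show that a gene stayed level. On GRCm38 the block of S100a1 (chr3:90511034-90514392, minus strand), S100a13 (chr3:90514435-90524581, plus), S100a16 (chr3:90537254-90543151, plus), S100a4 (chr3:90603771-90606045, plus), S100a6 (chr3:90612882-90624181, plus), S100a8 (chr3:90668978-90670035, plus) and S100a9 (chr3:90692632-90695721, minus) spans 184.7 kb. S100a11 (chr3:93520488-93526287, plus) and S100a10 (chr3:93555080-93564643, plus) lie 2.82 Mb farther on. S100a6, which fell, lies between S100a4 and S100a8, which did not pass. S100a8 and S100a9, 22.6 kb apart, were high and low in the same libraries. S100a1 and S100a13 are 42 bases apart, head to head, and neither passed. Of the 584 exonic bases of S100a4, 302 are shared with the gene model Gm42674, which was listed at 0 in all 6 libraries.

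Within each group the members formed a graded order of mean FPKM. In d/d oviducts it ran S100a10, S100a6, S100a16, S100a1, S100a11, S100a8, S100a9, S100a13, S100a4, S100g. In f/f oviducts it ran S100a10, S100a6, S100g, S100a16, S100a1, S100a11, S100a13, S100a8, S100a9, S100a4. Most neighbours in these orders had overlapping library ranges. The exceptions were S100a16 over S100a1 in both groups, S100a11 over S100a8 in d/d, and S100a11 over S100a13 in f/f libraries.

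The members share short transcripts, between 480 nt for S100g and 1127 nt for S100a16, where the median over 21504 genes with a complete coding transcript was 2717 nt. Only the longest protein-coding transcript with a complete coding sequence was taken for each gene. Their translated coding sequences were 21.6% to 49.4% identical over 45 pairs, with a median of 34.0% and the highest identity between S100a4 and S100a6. The letters GGACT, the best-known context of N6-methyladenosine, were present in 4 of the 10 transcripts (S100a1, S100a10, S100a13 and S100a16) and in 59.4% of the 2589 genes of the same length range. Both genes that fell, S100g and S100a6, lacked them in the transcript searched, which for S100a6 was 1 of 4 annotated. Methylation of these transcripts was not measured, and other contexts were not searched.

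The rest of the family was low. Of 6 other S100 genes, 4 were tested, and 0 passed in either direction; 1 was lower at an unadjusted limma p under 0.05, where 14.2% of all features were, and the median log2 change was -0.58. S100a7a, a psoriasin-like gene, had 1.14, 0.589 and 0.524 FPKM in d/d and 2.00, 2.49 and 2.13 FPKM in f/f libraries, without overlap (adjusted p = 0.0534). It passed without a variance trend (adjusted p = 0.0268) and without replicate 1 of both groups (adjusted p = 0.0479). In every fit that left out a single library it missed the threshold (limma adjusted p 0.0539 to 0.156). S100b, the glial and Schwann cell member and the most abundant of these, had 1.62, 8.15 and 3.63 FPKM in d/d and 9.96, 7.28 and 6.85 FPKM in f/f libraries (adjusted p = 0.222). Of 7 S100-fused genes of the skin barrier, only Tchh was tested, at 2.80 ± 0.509 FPKM in d/d and 1.61 ± 0.165 FPKM in f/f libraries (SD, n = 3 each; adjusted p = 0.115), and 4 (Flg2, Rptn, Tchhl1 and Crnn) were listed at 0 in all libraries. Of 11 EF-hand proteins outside the family, 9 were tested and 0 passed in either direction, with 1 higher and 0 lower at an unadjusted p under 0.05, beside 15.4% and 14.2% of all features. Capns1, the small calpain subunit and the most abundant of them, averaged 295 ± 28.0 FPKM in d/d and 293 ± 18.4 FPKM in f/f libraries (log2 change 0.00, 95% interval -0.28 to 0.29, adjusted p = 0.987).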

How the data were processed

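The labels' protocols give TRIzol for RNA extraction and a TruSeq RNA kit for library preparation. HISAT2 2.2.1, Cufflinks 2.2.1 and the builds mm9 and mm10 are named, with no role, per the submitters' processing notes; no source used here gives the annotation, the filters or the strand setting. The deposited decimals were read as FPKM made by the authors, which is an inference from Cufflinks and the values. Of 55483 rows, those sharing a symbol (114 symbols) were summed. No library pair held identical values (0 pairs).

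Features with mean FPKM of at least 1 were fitted with limma 3.58.1 (R 4.3.3) as log2(FPKM + 1) (variance trend, genotype only, 3 libraries a group, 4 residual degrees of freedom, two-sided, Benjamini-Hochberg threshold 0.05). Log2 changes are d/d minus f/f and understate changes of low genes; folds are ratios of mean FPKM. The fit was tested on simulated data, where it missed most of the smaller changes put in. Fragment numbers were taken from the lowest FPKM step of long single-transcript genes, where 91.6% to 95.2% of 303 to 395 genes lay within 1% of it. An exact 0 can be a failed estimate. Since the labels name no separate animals, the p-values reflect only library-to-library spread, which may be technical. Coordinates are GRCm38 (GENCODE M21, 99.5% of rows matched).

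The members and lists were chosen with earlier results of these data known. Named were all members, the called and the most abundant gene of each list, called and first-listed markers, overlapping genes, Mettl3 and the 5 features most like S100g. Atp2b1, Trpv6, Trpv5, Vdr, Pgr, Cacybp, Anxa1, Myh9, Tlr4, Ager, S100a7a, Ngp, Camp, Mmp8, Retnlg, Il1r2, Myd88, Mpo, Elane, Cd163, Hoxa10 and the genes at 0 were chosen after their values were seen. So was Ly6g. Alternatives were a pseudocount of 0.1, no filter, quantile and TMM scaling, rescaling to protein-coding nuclear features, no variance trend, a replicate block, and leaving out libraries.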

Additional observations from a re-analysis of the deposited data

How the results depend on the processing

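S100g was called lower under all 14 alternatives (adjusted p 0.00323 to 0.0392). S100a6 was called in 11. With the replicate block, limma gave S100a6 a log2 change of -0.71 (adjusted p = 0.0643), and 1 member was lower; Anxa2, Cd14, Csf3r and Mettl3 then missed the threshold too (adjusted p = 0.0655, 0.0821, 0.117 and 0.0559). Same-numbered libraries did not deviate together (r = -0.22, -0.06 and 0.003), and unlike-numbered pairs ran from -0.276 to 0.282. With 3 libraries a group, such values can neither show nor exclude a pairing. Without replicate 1 of both groups, S100a10 passed at -0.86 (adjusted p = 0.0346). Leaving out single libraries gave 0 to 2 members higher and 1 to 2 lower. The log2 changes then ran from -0.78 to -0.63 for S100a6, from -0.06 to 0.36 for S100a11 (reversed at -0.062 without f/f replicate 3), from 1.44 to 3.82 for S100a8 and from 1.24 to 3.75 for S100a9; why was not tested. Of 140 log2 changes under an alternative, 133 kept direction and call, and of 28 member counts 23 kept their value.

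Counts over all features moved more: 933 higher and 768 lower became 174 and 102 with the block, 599 and 508 with no filter, 465 and 408 leaving out d/d replicate 1, 337 and 251 leaving out d/d replicate 2, 346 and 215 leaving out d/d replicate 3, 98 and 71 leaving out f/f replicate 2, and 319 and 201 leaving out f/f replicate 3. Macrophage markers called higher numbered 5 with the block, against 9. Fits without 1 library have 3 residual degrees of freedom and fewer samples. No scaling moved the median of all features past -0.04. Depth per gene is known only through the FPKM steps, so no counting interval is given.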
